A study of Mus musculus with 15 samples.

Results

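The thrombospondin family was followed in the aorta of mice infused with angiotensin II (AngII), a vasoconstrictor peptide that raises blood pressure, or with vehicle. The family was taken as 6 genes chosen by name, without a threshold on their values, namely the secreted ligands Thbs1, Thbs2, Thbs3, Thbs4 and Comp, and the cell surface receptor Cd47. Of these, 5 were measured, each by 1 probe set that carried no other gene symbol, among 12848 genes on the array with a probe set of their own. Thbs4 was not measured here.

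All mice were of the strain that the sample labels write as C57BL6 and were 2 months old, and no targeted allele is named for them. AngII was delivered at 1 µg/kg/min by an implanted osmotic pump for 3 weeks in 8 mice (AngII 1 to AngII 8), while 7 mice received pumps with saline (vehicle 1 to vehicle 7). RNA of the dissected aorta was hybridised to Affymetrix arrays, 15 in all, and the sex of the mice is not given in the sources used here. The model rests on constant infusion of the peptide alone, and each array holds every cell type of the vessel with whatever tissue remained attached.

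Thrombospondins are large calcium-binding glycoproteins that cells secrete into the matrix, where they bind collagens, growth factors, proteases and receptors. Thbs1 and Thbs2 assemble into trimers and carry thrombospondin type 1 repeats, which bind CD36 and, in Thbs1, can release TGF-beta from its latent complex. Thbs3, Thbs4 and Comp assemble into pentamers that lack those repeats and are best known from cartilage, tendon, bone and muscle. CD47 is a membrane protein of nearly all cells that binds the C-terminal part of Thbs1 and the macrophage receptor SIRPA, and in vascular cells its ligation by Thbs1 restrains nitric oxide signalling through soluble guanylyl cyclase (sGC).

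The values are log2 signals, so a difference of 1 is a doubling, and the array medians lay between 7.16 and 7.28. Signals of different probe sets are not comparable as amounts, so the level of each gene is compared only with itself. Between members only the changes are compared. The tissue carried its expected smooth muscle genes in both groups, with Acta2 at 13.84 and 13.71 and Myh11 at 13.12 and 12.85 in vehicle and AngII arrays. Sample names follow 2 patterns, here called naming series A (vehicle 1 and 2, AngII 1 to 3) and naming series B (5 arrays of each group). What the patterns stand for is not given in the sources used here, and the changes of the members are also given within them. The arrays least like the others were AngII 8, AngII 5 and vehicle 1, and some of the results that rest on them are given without them as well.

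Thbs1 and Comp rose after AngII infusion, Thbs2 lay slightly higher without passing the test, and Thbs3 and Cd47 differed by less than the spread between arrays. Each member was tested with limma over all 15095 probe sets with Benjamini-Hochberg adjustment, and an adjusted p under 0.05 was called. With 2 of 5 measured members called higher, the background is that 2.42% of all probe sets were called higher and 2.91% lower. No member was called lower by limma, at an unadjusted p under 0.05, by significance analysis of microarrays or by the methods' t-test. The median log2 fold change of the 5 members was 0.28, beside -0.0085 over all probe sets.

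**Figure D1:**
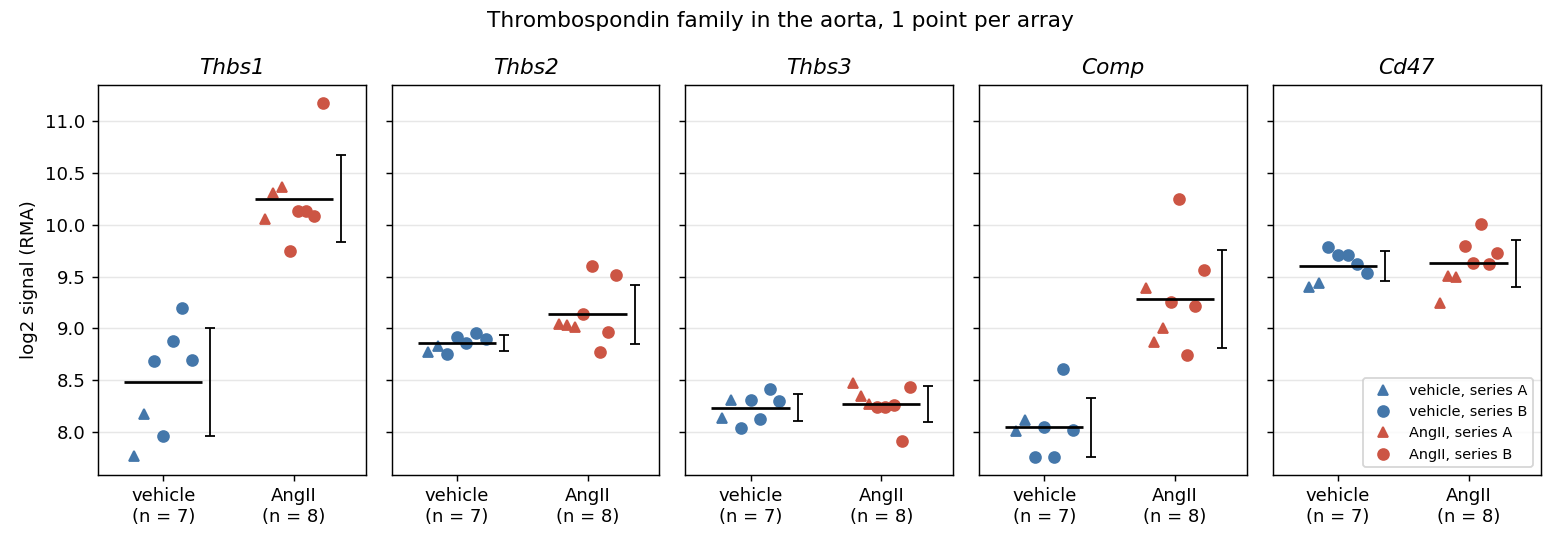
Log2 signal of the 5 measured members (vertical axis) in 7 vehicle and 8 AngII arrays, 1 point per array, with triangles for naming series A and circles for series B, a horizontal line at the group mean and a bar of 1 SD beside it. The groups are apart for Thbs1 and Comp, where the lowest AngII arrays stand at 9.75 and 8.74 and the highest vehicle arrays at 9.20 and 8.61, and they overlap for the other 3 genes.

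Thbs1, thrombospondin 1, is released by platelets and made by smooth muscle cells, fibroblasts and endothelium of injured vessels. In vehicle 1 to 7 its log2 signal was 7.77, 8.17, 8.69, 7.96, 8.88, 9.20 and 8.70. In AngII 1 to 8 it was 10.06, 10.31, 10.37, 9.75, 10.13, 10.13, 10.09 and 11.18. Every AngII array lay above every vehicle array, with vehicle 6 the highest control and AngII 4 the lowest treated array. Across all probe sets 0.55% separated the groups in this direction.
The vehicle mean was 8.48 ± 0.525 (SD, n = 7) and the AngII mean was 10.25 ± 0.419 (SD, n = 8). The log2 fold change was 1.77 (standard error 0.22, 95% interval 1.31 to 2.24, adjusted p = 0.00111 from limma), a 3.41-fold rise with an interval from 2.47 to 4.71. The exact two-sided permutation test of the group means gave p = 0.000155, the smallest that 7 against 8 arrays allow. AngII 8 stood well above the other treated arrays, and without it the log2 fold change was 1.64 (adjusted p = 0.00118 from limma).
Thbs1 had the widest spread of the family among vehicle arrays, with an SD of 0.525. Its control values ran over 7.77 to 8.17 in series A and 7.96 to 9.20 in series B, while the AngII means were 10.25 in A and 10.26 in B. The log2 fold change was 2.28 in series A (adjusted p = 0.0271 from limma) and 1.57 in series B (adjusted p = 0.0305 from limma, with 1.37% of all probe sets called higher there). The difference between these changes did not pass the interaction test (-0.71, standard error 0.433, adjusted p = 0.729 from limma).

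Comp, cartilage oligomeric matrix protein, is the pentameric member that binds collagen fibrils and matrilins, and it is also made by vascular smooth muscle. Its log2 signal in vehicle 1 to 7 was 8.01, 8.12, 7.76, 8.05, 7.76, 8.61 and 8.02. In AngII 1 to 8 it was 9.39, 8.87, 9.0, 9.26, 10.25, 8.74, 9.22 and 9.56. The groups did not overlap, although vehicle 6 at 8.61 came close to AngII 6 at 8.74, and AngII 5 was the highest array.
The vehicle mean was 8.05 ± 0.288 (SD, n = 7) and the AngII mean was 9.29 ± 0.477 (SD, n = 8). The log2 fold change was 1.24 (standard error 0.188, 95% interval 0.84 to 1.64, adjusted p = 0.0033 from limma), a 2.36-fold rise with an interval from 1.79 to 3.11. The exact permutation test again gave its smallest possible p, 0.000155. Comp and Thbs1 were thus among the 29 probe sets, 0.192% of all, that were called and more than 2-fold higher.
The change of Comp was 1.37 in series B (adjusted p = 0.0353 from limma). In series A, with 5 arrays, it was 1.02 and lost the call (adjusted p = 0.201 from limma, with 0.0464% of all probe sets called higher there). The interaction was 0.34 (adjusted p = 0.854 from limma).

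Thbs2, the other trimeric member, is made by fibroblasts and smooth muscle cells and is known in mice for its part in collagen fibril assembly and in limiting vessel growth. In vehicle 1 to 7 its log2 signal was 8.77, 8.83, 8.75, 8.92, 8.86, 8.96 and 8.90, the narrowest control range of the family. In AngII 1 to 8 it was 9.04, 9.03, 9.01, 9.14, 9.60, 8.77, 8.97 and 9.52. All AngII arrays but AngII 6 lay above the highest vehicle array, and AngII 5 and AngII 8 stood apart from the rest.
The vehicle mean was 8.85 ± 0.0787 (SD, n = 7) and the AngII mean was 9.13 ± 0.282 (SD, n = 8). The log2 fold change was 0.28 (standard error 0.105, 95% interval 0.06 to 0.5), a ratio of 1.21, with an unadjusted p of 0.0164 and an adjusted p of 0.13 from limma. For background, 9.29% of all probe sets were higher at an unadjusted p under 0.05. The exact permutation test of this gene alone gave p = 0.0131.
The outcome depended on single arrays. Without AngII 6 the change was 0.33 and was called (adjusted p = 0.0498 from limma, with 3.37% of probe sets called higher in that fit). Without AngII 8, AngII 5 and vehicle 1 it was 0.12 (adjusted p = 0.324 from limma), an alternative added after the data were seen. In series A alone it was 0.23 and in series B alone 0.32, neither called (adjusted p of 0.503 and 0.226 from limma).

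Thbs3, a pentameric member with roles in bone growth in mice, was not called. Its log2 signal was 8.14, 8.31, 8.04, 8.31, 8.13, 8.42 and 8.30 in vehicle 1 to 7. In AngII 1 to 8 it was 8.47, 8.35, 8.27, 8.24, 8.24, 8.26, 7.91 and 8.43. Both the highest and the lowest of the 15 values came from AngII arrays, AngII 1 and AngII 7. The log2 fold change was 0.034 (standard error 0.0788, 95% interval -0.13 to 0.2, adjusted p = 0.84 from limma), so that a change of up to 1.15-fold up or to 0.912 of the control level lay within the interval. The change was 0.14 in series A and -0.025 in series B (adjusted p of 0.711 and 0.909 from limma).

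Cd47 was not called for AngII but was called for the naming series. In vehicle 1 to 7 its log2 signal was 9.40, 9.44, 9.79, 9.71, 9.71, 9.62 and 9.54. In AngII 1 to 8 it was 9.25, 9.51, 9.5, 9.80, 9.63, 10.01, 9.62 and 9.73. The log2 fold change was 0.028 (standard error 0.0961, 95% interval -0.17 to 0.23, adjusted p = 0.891 from limma), with a ratio between 0.886 and 1.17.
Cd47 ran from 9.25 to 9.51 in the arrays of series A and from 9.54 to 10.01 in those of series B. How many of all probe sets separate the series in this way was not counted. In a fit with the group, series B exceeded series A in Cd47 by 0.30, with a standard error of 0.0715 (limma, adjusted p = 0.032). Cd47 was the only member called for the series, beside 3.05% of all probe sets. Within the series the change with AngII was -0.0015 in A and 0.083 in B, and neither was called (adjusted p of 0.997 and 0.605 from limma).

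**Figure D2:**
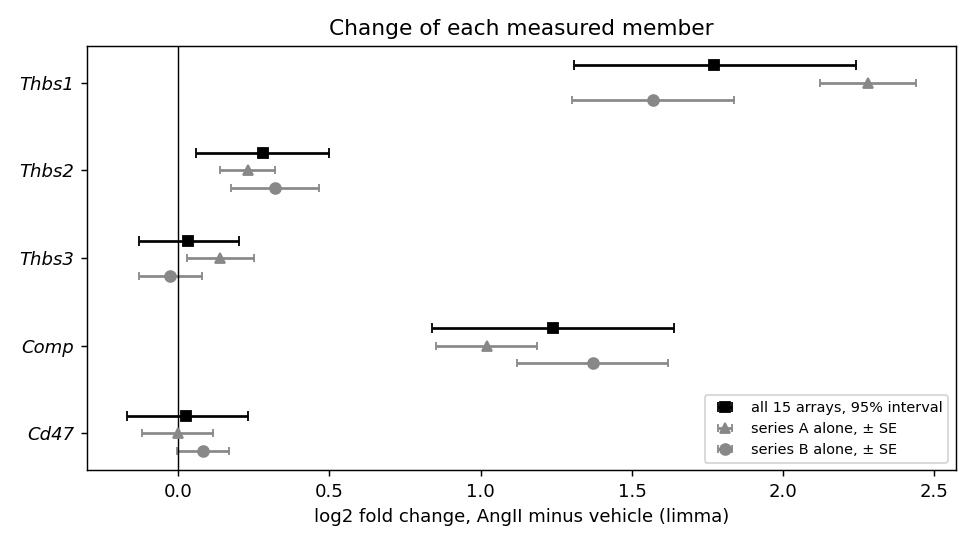
Log2 fold change of AngII against vehicle from limma (horizontal axis) for each measured member, with the 95% interval over all 15 arrays (black squares) and with 1 SE for naming series A alone (grey triangles) and series B alone (grey circles). Thbs1 at 1.77 and Comp at 1.24 stand clear of 0 in every fit plotted, and the black intervals of Thbs3 and Cd47 include 0.

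The measured signals of the members did not change alike. The processing shrinks the change of dim probe sets, so the comparisons here are of signals and not of transcript amounts. The per-array difference between 2 members was compared between the groups for all 10 pairs, by an exact permutation test added after the data were seen, with Benjamini-Hochberg adjustment over the pairs. The change of Thbs1 exceeded that of Thbs2 by 1.49 and that of Thbs3 and of Cd47 by 1.74 each (adjusted p = 0.000311 each, exact permutation test). The change of Comp exceeded that of Thbs2 by 0.96 and that of Thbs3 by 1.21 (adjusted p = 0.000311 each, exact permutation test), and that of Cd47 by 1.21 (adjusted p = 0.00104, exact permutation test). Thbs1 and Comp could not be ranked, since their changes differed by 0.53 (adjusted p = 0.117, exact permutation test). Nor could the other 3 members, where Thbs2 exceeded Thbs3 and Cd47 by 0.25 each (adjusted p of 0.0702 and 0.141, exact permutation test) and Thbs3 exceeded Cd47 by 0.0052 (adjusted p = 0.971).

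Thbs2 and Comp varied together from array to array. Correlations were computed over the 15 arrays after the mean of each group had been subtracted, so that the difference between the groups does not enter, with 100000 permutations within groups and adjustment over the 10 pairs. For Thbs2 with Comp, Pearson's r was 0.835 (permutation p = 0.00013, adjusted p = 0.0013) and Spearman's rho was 0.775 (permutation p = 0.00146, adjusted p = 0.0146). Without AngII 5 and AngII 8, the arrays farthest from the median of Thbs2, r was 0.658. In series B alone r was 0.857 (permutation p = 0.000694) and rho 0.903 (permutation p = 0.000625), and series A has too few arrays for a value.
Within the 8 AngII arrays the same pair gave r = 0.889 (exact p = 0.00124) and rho = 0.881 (exact p = 0.00724). Within the 7 vehicle arrays r was 0.684 (exact p = 0.0764) and rho 0.607 (exact p = 0.167). None of the other 9 pairs passed. Thbs1 with Comp, the 2 genes that rose, gave r = 0.156 (permutation p = 0.56, adjusted p = 0.622) and rho = -0.00357 (permutation p = 0.995). AngII 5, which held the highest Comp, lay in the middle of its group in Thbs1, at 10.13.

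**Figure D3:**
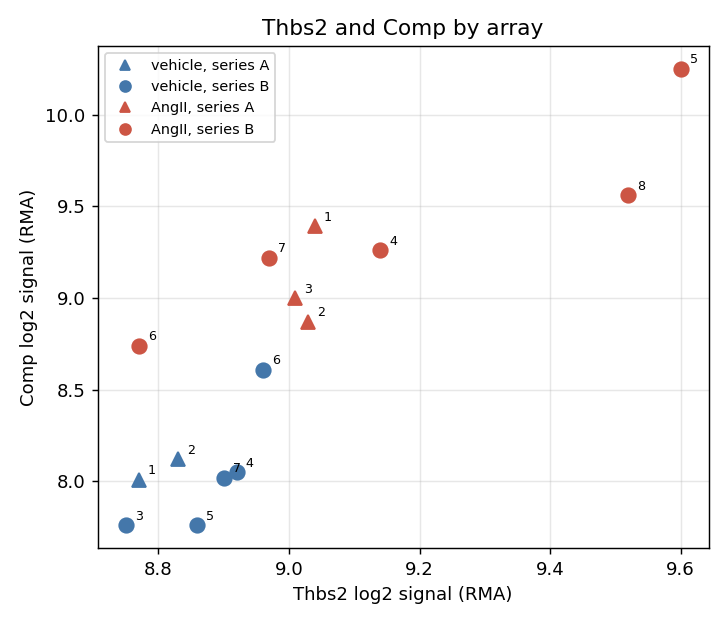
Log2 signal of Thbs2 (horizontal axis) and of Comp (vertical axis), 1 point per array with its number in the group, vehicle in blue, AngII in red, triangles for naming series A and circles for series B. Within the AngII arrays both genes are lowest in AngII 6 (8.77 and 8.74) and highest in AngII 5 (9.60 and 10.25).

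Of the ligands and the receptor, RefSeq's table of the GRCm38.p6 assembly gave the start of 4 genes (Thbs2, Thbs3, Thbs4 and Cd47), and Thbs1 and Comp were not matched. The 250 bases before the start are shown for the pair of matrix ligands among them that were measured, Thbs2 and Thbs3. Neither gene was called, and the windows are shown since their composition and motifs differ. Capitals mark matches on either strand to a TATA box (TATAAA), to CCAAT, to a GC box (GGGCGG) and to the letters bound by RBPJ (TGGGAA), the DNA-binding factor of the Notch pathway that the study took up.
Thbs2, chr17:14694263-14694512, minus strand: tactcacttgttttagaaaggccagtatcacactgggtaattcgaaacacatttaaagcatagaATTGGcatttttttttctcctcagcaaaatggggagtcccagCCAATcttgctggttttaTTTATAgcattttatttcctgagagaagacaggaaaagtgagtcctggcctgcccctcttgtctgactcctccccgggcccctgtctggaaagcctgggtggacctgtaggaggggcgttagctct
Thbs3, chr3:89214930-89215179, plus strand: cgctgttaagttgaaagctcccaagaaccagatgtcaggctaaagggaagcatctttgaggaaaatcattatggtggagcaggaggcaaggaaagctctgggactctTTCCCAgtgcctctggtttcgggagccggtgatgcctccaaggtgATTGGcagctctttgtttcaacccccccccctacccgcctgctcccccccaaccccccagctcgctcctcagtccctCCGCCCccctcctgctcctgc
The Thbs2 window held 46.8% G and C and the Thbs3 window 58.8%, beside a median of 52.4% over the 32851 windows of this length in the table. The Cd47 windows, from 2 start sites, held 73.2% and 74.4%, and the Thbs4 window held 70.8%.
In the Thbs2 window a TATA box match lay 126 to 121 bases before the start on the opposite strand, and 2 CCAAT matches lay farther out. The Thbs3 window held 1 match each to RBPJ, at 143 to 138 bases, CCAAT and the GC box. Of all windows 12.4% held TATAAA, 33.8% CCAAT, 32.7% GGGCGG and 21.6% TGGGAA. The letters TGANTCA (AP-1, in 6.75% of all windows) and the CArG box (1.47%), each bound by factors active in stressed smooth muscle, occurred in no window of the 4 genes, and GGAATG (TEAD, 12.6%) occurred only in that of Thbs4, in 2 overlapping copies. These matches are a description of the sequence.

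None of the genes for thrombospondin receptors and surface partners was called by limma, by significance analysis of microarrays or by the methods' t-test. All 14 listed genes were measured, with a median log2 fold change of 0.037, and at an unadjusted p under 0.05 from limma 2 were higher and 1 was lower. As background for this and the lists below, 3309 of all 15095 probe sets passed that level, 1403 of them higher and the rest lower. In the absence of a call, the genes named are those of highest mean signal, Itgb1, the beta chain of many matrix-binding integrins, with a change of -0.025 (adjusted p = 0.871 from limma), and Calr, calreticulin, which works with LRP1 as a thrombospondin receptor, with a change of 0.022 (adjusted p = 0.893 from limma).

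**Figure D4:**
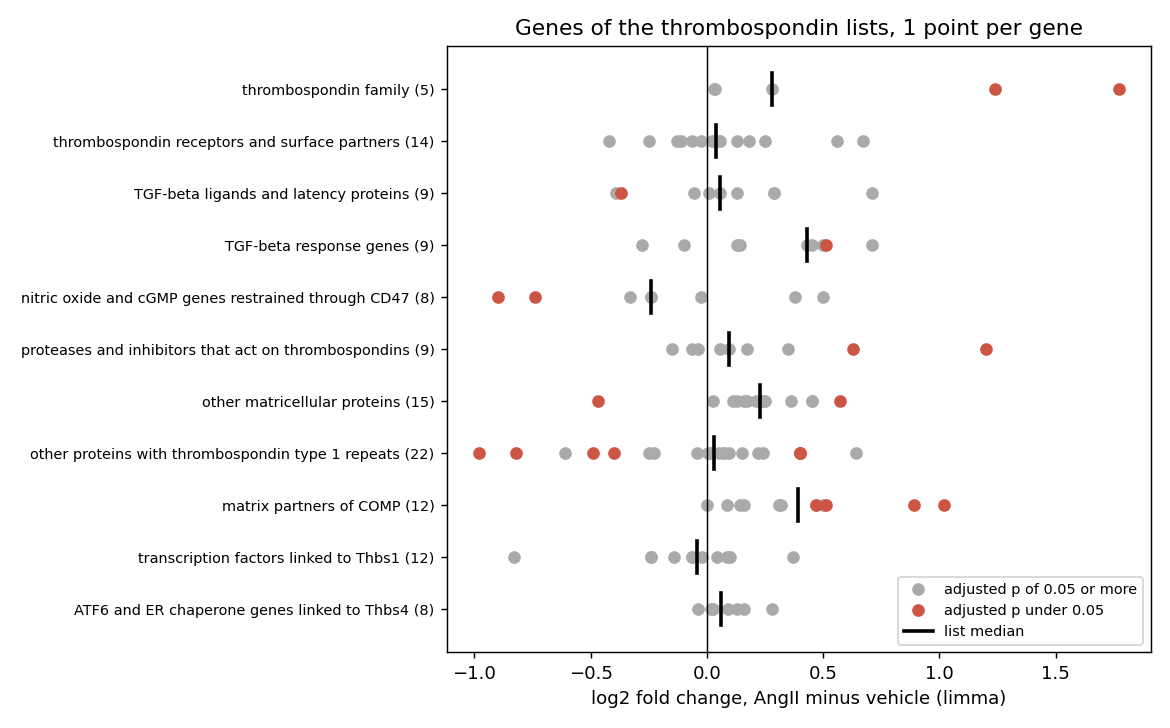
Log2 fold change of AngII against vehicle (horizontal axis) for each measured gene of the family and of 10 lists around it, 1 point per gene, red where the adjusted p from limma was under 0.05, with a black bar at the list median and the number of measured genes in brackets. The farthest points to the right are Thbs1 and Comp, with Timp1 at 1.20 next, and those to the left are Unc5c at -0.98 and Gucy1a1 at -0.90.

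Genes of TGF-beta, which Thbs1 can release from latency, held 1 lower and 1 higher call. Of 9 measured ligand and latency genes, Itgb8, a chain of an integrin that activates latent TGF-beta, was lower by -0.37 (adjusted p = 0.0361 from limma), and none was called higher. At an unadjusted p under 0.05 from limma 3 of these genes were higher and 2 lower. The call of Itgb8 ended when any of 10 single arrays was left out (adjusted p up to 0.0836 from limma). Of 9 measured TGF-beta response genes, Fn1, fibronectin, rose by 0.51 (12.47 ± 0.191 in 7 vehicle and 12.98 ± 0.279 in 8 AngII arrays, adjusted p = 0.0214 from limma). Its call ended without vehicle 5 (adjusted p = 0.0527 from limma) and in series B alone, where the change was 0.41 (adjusted p = 0.117 from limma). At an unadjusted p under 0.05 from limma 5 of the 9 response genes were higher and none was lower. The list medians were 0.055 and 0.43.

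Nitric oxide and cGMP signalling is the pathway whose activity Thbs1 restrains through CD47. Of 8 measured genes of this pathway 2 were called lower and none higher, with a median of -0.24. Over all probe sets 2.91% were called lower and 2.42% higher. At an unadjusted p under 0.05 from limma 4 were lower and none was higher, beside 3309 of all 15095 probe sets at that level, 1403 of them higher and the rest lower. The called genes were the sGC subunits Gucy1a1 and Gucy1b1, which the study names Gucy1a3 and Gucy1b3. The study reports both as repressed in these data, and the list was chosen with earlier results known. The 2 calls are thus a description, and a link with Thbs1 or CD47 was not tested by them. Gucy1a1 went from 10.99 ± 0.185 (SD, n = 7) to 10.10 ± 0.394 (SD, n = 8), a change of -0.90 (adjusted p = 0.00486 from limma), and its groups did not overlap. Of all probe sets 0.543% had every AngII array below every vehicle array. Gucy1b1 went from 10.51 ± 0.132 (SD, n = 7) to 9.77 ± 0.425 (SD, n = 8), a change of -0.74 (adjusted p = 0.0133 from limma). The changes in series A and B were -0.70 and -0.99 for Gucy1a1 and -0.41 and -0.92 for Gucy1b1.
After the group means were subtracted, Pearson's r of Comp and of Thbs2 with the sGC subunits was negative and passed adjustment, and that of Thbs1 and Cd47 did not pass, in 10 relations added after the data were seen. Comp gave r = -0.794 with Gucy1b1 (permutation p = 0.00163, adjusted p = 0.0163) and -0.716 with Gucy1a1 (permutation p = 0.0079, adjusted p = 0.0273). Spearman's rho of these pairs was -0.607 and -0.675 and did not pass the adjustment (adjusted permutation p of 0.188 and 0.137). Without vehicle 5 and AngII 5, the arrays farthest from the median of Comp, r was -0.618 and -0.644. AngII 8 stayed in that fit, and the Comp relations without it were not tested. In series B alone r was -0.826 (permutation p = 0.0156) and -0.749 (permutation p = 0.0342). In the 8 AngII arrays alone r was -0.918 with Gucy1b1 (exact permutation p = 0.000818, rho -0.905) and -0.804 with Gucy1a1 (exact permutation p = 0.0133, rho -0.857). In the 7 vehicle arrays it was -0.173 and -0.373 (exact permutation p of 0.667 and 0.423, rho -0.214 each).
Thbs2 gave r = -0.791 with Gucy1b1 (permutation p = 0.00818, adjusted p = 0.0273) and -0.729 with Gucy1a1 (permutation p = 0.0167, adjusted p = 0.0418), with rho of -0.579 and -0.418 that did not pass (adjusted permutation p of 0.201 and 0.401). These relations rested on AngII 5 and AngII 8, without which r was -0.37 and -0.253. In series B r was -0.86 (permutation p = 0.0213) and -0.836 (permutation p = 0.059). In the AngII arrays alone r was -0.879 (exact permutation p = 0.00379, rho -0.738) and -0.845 (exact permutation p = 0.0107, rho -0.619), and in the vehicle arrays it had the opposite sign, at 0.389 and 0.21 (exact permutation p of 0.41 and 0.652, rho 0.0714 each). The difference between the groups' correlations was not tested. Thbs1 gave r = -0.0472 with Gucy1b1 and -0.241 with Gucy1a1 (adjusted permutation p of 0.869 and 0.636), with rho of 0.0321 and -0.125. Comp and Thbs2 gave r = -0.561 and -0.547 with the mean of 7 smooth muscle genes (adjusted permutation p of 0.244 and 0.274 over 35 relations). In the AngII arrays alone r was -0.819 and -0.801 (exact permutation p of 0.0145 and 0.0235, rho -0.548 and -0.333), and in the vehicle arrays 0.102 and 0.648. Without the arrays left out above it was -0.168 and 0.429. The part of smooth muscle in the sGC relations was not tested.

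Among proteases linked to thrombospondins and inhibitors of proteases, 2 of 9 measured genes were called higher and none lower, with a median of 0.093. Over all probe sets 2.42% were called higher and 2.91% lower. At an unadjusted p under 0.05 from limma 3 were higher and none was lower. Timp1, a secreted inhibitor of metalloproteinases, went from 7.06 ± 0.266 (SD, n = 7) to 8.25 ± 0.481 (SD, n = 8), a change of 1.20 (adjusted p = 0.00368 from limma) with no overlap between the groups. Of all probe sets 0.55% had every AngII array above every vehicle array. Mmp2, a gelatinase that thrombospondins help to clear through LRP1, changed by 0.63 (adjusted p = 0.0273 from limma), by 0.17 in series A and 0.84 in series B. The call of Mmp2 ended in 5 fits that left out AngII 8 or vehicle 2, 4, 5 or 7 (adjusted p up to 0.0675 from limma).

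Matrix partners of Comp were called higher in 4 of 12 measured cases and lower in none, beside 2.42% and 2.91% of all probe sets. Their median change was 0.39. At an unadjusted p under 0.05 from limma 8 were higher and none was lower. The count of called genes ran from 1 without vehicle 5 to 7 without AngII 6, and was 1 by significance analysis of microarrays, 2 with the adipocyte mean as a covariate and 0 in each naming series alone. Col12a1, a fibril-associated collagen, changed by 1.02 (7.12 ± 0.225 in 7 vehicle and 8.14 ± 0.585 in 8 AngII arrays, adjusted p = 0.0139 from limma). Acan, the cartilage proteoglycan aggrecan, changed by 0.89 (adjusted p = 0.031 from limma), Matn2, a matrilin, by 0.47 (adjusted p = 0.0276 from limma), and Fn1 is given above. The calls of Acan and Matn2 ended in 9 and in 6 of the fits that each left out 1 array (adjusted p up to 0.0613 and 0.0675 from limma). In series B alone the change of Col12a1 was 0.92 (adjusted p = 0.0812 from limma).

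Other matricellular proteins, which like thrombospondins act on cells more than they bear load, held 1 higher and 1 lower gene of 15 measured, with a median of 0.23. The change was above 0 in 14 of the 15, beside 7161 of all 15095 probe sets. At an unadjusted p under 0.05 from limma 8 were higher and 1 was lower. Ccn4, a CCN family protein also named Wisp1, rose by 0.57 (adjusted p = 0.0185 from limma). Tnxb, tenascin-X, which links collagen fibrils, fell by 0.47 (9.51 ± 0.164 in 7 vehicle and 9.04 ± 0.128 in 8 AngII arrays, adjusted p = 0.00435 from limma), and its groups did not overlap. Across all probe sets 0.543% separated the groups in that direction.

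Other proteins that carry thrombospondin type 1 repeats changed in both directions, with 2 of 22 measured genes called higher and 4 lower and a median of 0.031. Over all probe sets 2.42% were called higher and 2.91% lower. The largest changes were falls in Unc5c, a netrin receptor, by 0.98 (9.30 ± 0.31 in 7 vehicle and 8.31 ± 0.563 in 8 AngII arrays, adjusted p = 0.018 from limma), and in Sema5a, a semaphorin that guides axons, by 0.82 (adjusted p = 0.00731 from limma). Thsd4, which binds microfibrils, fell by 0.49 (adjusted p = 0.0402 from limma) and the netrin receptor Unc5d by 0.40 (adjusted p = 0.0338 from limma). Rspo2, an R-spondin that strengthens Wnt signalling, and the netrin receptor Unc5b both changed by 0.40 (adjusted p of 0.0426 and 0.0244 from limma). Of these genes Unc5c and Sema5a kept their calls whichever array was left out, while those of Rspo2, Thsd4, Unc5d and Unc5b ended in 11, 10, 9 and 2 of these fits (adjusted p up to 0.0975, 0.0946, 0.0801 and 0.0553 from limma). In series B alone the change of Unc5c was -1.08 and was not called (adjusted p = 0.07 from limma).

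None of 12 measured transcription factors linked to Thbs1 and none of 8 measured ATF6 and chaperone genes, which respond to Thbs4 in the mouse heart, was called in either direction by limma, by significance analysis of microarrays or by the methods' t-test, with medians of -0.042 and 0.059. At an unadjusted p under 0.05 from limma 1 factor was higher and 2 were lower, and no chaperone gene passed. Klf6 and Hif1a, named by the same rule on mean signal, changed by 0.10 and 0.094 (adjusted p of 0.506 and 0.442 from limma). Of the chaperones, Hsp90b1 changed by 0.092 (adjusted p = 0.532 from limma) and Calr, which is on both lists, is given above.

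The rises of Thbs1 and Comp came with higher signals of markers of other cells, and in whole tissue more cells of a type and more RNA per cell cannot be told apart. The mean of 7 fibroblast genes was 11.01 (10.86 to 11.21) in vehicle and 11.39 (11.27 to 11.70) in AngII arrays (exact permutation p = 0.000155), and 2 of the 7, Dpt and Lum, were called higher. Of the 5 not called, Pdgfra and Pi16 changed least, by 0.073 and 0.074 (adjusted p of 0.715 and 0.704 from limma). The mean of 7 macrophage genes was 7.92 (7.48 to 8.26) and 8.51 (8.16 to 9.19) (exact permutation p = 0.00124), with 3 called higher. Cd163, also on that list, changed by -0.0065 (adjusted p = 0.984 from limma). The mean of 9 measured tendon and cartilage genes was 6.66 (6.55 to 6.85) and 7.29 (6.81 to 7.75) (exact permutation p = 0.000466), with Tnmd, Scx and Acan called higher, Scx and Tnmd being tendon genes. Hapln1, a cartilage gene of the same list, changed by -0.031 (adjusted p = 0.938 from limma). Beside these counts, 2.42% of all probe sets were called higher.
The mean of 5 measured platelet genes, of interest because platelets store Thbs1, was 6.66 (6.33 to 7.25) and 6.87 (6.28 to 7.61) (exact permutation p = 0.359), with none called. The mean of 7 smooth muscle genes was 12.19 (11.89 to 12.37) and 11.95 (11.55 to 12.21) (exact permutation p = 0.0305), with none called, and that of 10 measured adipocyte genes was 9.06 (7.66 to 10.55) and 9.64 (8.12 to 10.45) (exact permutation p = 0.27). Markers of T and B cells were not measured here.
The part of these cells in the rise of Thbs1 and Comp was not tested. With the adipocyte mean as a covariate the changes were 1.84 for Thbs1 and 1.15 for Comp, both called (adjusted p of 0.00221 and 0.00491 from limma). After the group means were subtracted, Thbs1 correlated with the fibroblast, macrophage, platelet and tendon means at r = -0.0881, 0.242, 0.41 and 0.121 (rho -0.107, 0.1, 0.418 and 0.0786), none past adjustment over 35 relations of 5 members with 7 marker means (adjusted permutation p from 0.313). With the macrophage mean r was 0.587 without vehicle 1 and vehicle 4, 0.834 in the AngII arrays alone (exact permutation p = 0.0203, rho 0.714) and -0.47 in the vehicle arrays (exact permutation p = 0.294, rho -0.321). AngII 8 held the highest Thbs1 and the highest macrophage mean, at 11.18 and 9.19, and this relation without AngII 8 was not tested. Comp reached r = 0.723 with the fibroblast mean (permutation p = 0.00816, adjusted p = 0.0952, rho 0.554) and 0.668 with the tendon and cartilage mean (permutation p = 0.0265, adjusted p = 0.154, rho 0.4), and Thbs2 reached 0.794 with the latter (permutation p = 0.00536, adjusted p = 0.0938, rho 0.454). These relations weakened without the 2 arrays farthest from the member's median, to 0.387 and 0.411 for Comp without vehicle 5 and AngII 5, and to 0.55 for Thbs2 without AngII 5 and AngII 8. Thbs2 with the tendon and cartilage mean gave r = -0.398 in the vehicle arrays (exact permutation p = 0.397, rho -0.179) and 0.897 in the AngII arrays (exact permutation p = 0.000868, rho 0.786).

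The only one of these 35 relations that passed was that of Cd47 with the mean of 7 endothelial genes. It gave r = 0.814 (permutation p = 0.00065, adjusted p = 0.0227) and rho = 0.811 (permutation p = 0.00055, adjusted p = 0.0192), and r = 0.693 without AngII 1 and AngII 6. The endothelial mean also ran lower in series A, from 8.07 to 8.73, than in series B, from 8.57 to 9.53. Within series B r was 0.664 (permutation p = 0.0303) and rho 0.539 (permutation p = 0.126). By group the endothelial mean was 8.78 in vehicle and 8.88 in AngII arrays (exact permutation p = 0.653).

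**Figure D5:**
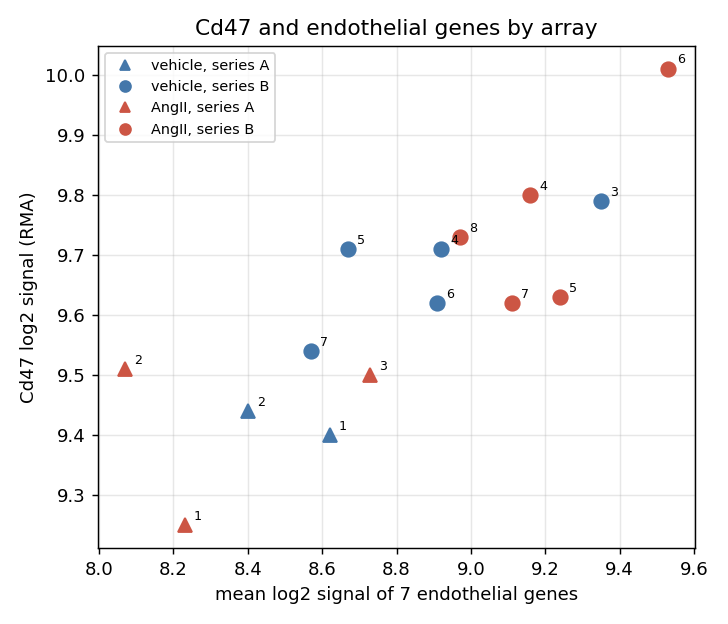
Mean log2 signal of 7 endothelial genes (horizontal axis) and log2 signal of Cd47 (vertical axis), 1 point per array with its number in the group, vehicle in blue, AngII in red, triangles for naming series A and circles for series B. Series A lies at the lower left, with Cd47 at or below 9.51, and series B at the upper right, with AngII 6 highest in both measures (9.53 and 10.01).

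The genes most like each member, by correlation after the group means were subtracted, were read off over the 15 arrays as a description, since the highest of 12848 correlations are chosen extremes and carry no test. Nearest to Cd47 were Selp, the adhesion receptor P-selectin of endothelium and platelets (r = 0.967), Slco2a1, a prostaglandin transporter (0.948), Cd24a (0.947), Spon1, a secreted protein with thrombospondin type 1 repeats (0.945), and Elmo1 (0.944). Nearest to Comp were Hexa, a lysosomal hexosaminidase subunit (r = 0.879), Suds3 (0.867), Phlda1 (0.866), Relb, an NF-kappaB subunit (0.866), and Aup1 (0.85).
For Thbs2 they were the elongation factor Ell2 (r = 0.909), Trim59 (0.881), Sox30 (0.877), Ccsap (0.876) and Igfbp3, which binds insulin-like growth factors (0.875). For Thbs3 they were Fam102b (r = 0.873), Akr1cl (0.858), the actin-binding gene Dbn1 (0.857), Nxph4 (0.854) and Larp6, whose product binds collagen mRNAs (0.836). For Thbs1 they were the helicase Ddx42 (r = 0.855), the histone methyltransferase Nsd2 (0.849), Wtap (0.823), Pisd-ps2 (0.818) and Lars (0.814). The nearest genes of Thbs1 had log2 fold changes from -0.11 for Lars to 0.083 for Nsd2, none of them called by limma, beside 2.42% of all probe sets called higher. Of the nearest genes of the other members, limma called Trim59 (0.46, adjusted p = 0.0138), Hexa (0.33, adjusted p = 0.0379) and Fam102b (0.26, adjusted p = 0.0425) higher, and no others.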

How the data were processed

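RNA of 15 aortae was measured on Affymetrix arrays. Per the labels and the methods, the authors used robust multiarray analysis (RMA) and Expression Console to normalize the arrays and summarize probe sets, and deposited the signals as log2 values. RMA shrinks the change of dim probe sets. No genome build is given in the sources used here. All 15095 probe sets were kept, of which 13403 carry 1 gene symbol, 958 several and 734 none in the platform annotation. A gene was represented by its probe set of highest mean signal.

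Groups were compared with limma 3.58.1 (R 4.3.3) and a threshold of 0.05 on Benjamini-Hochberg adjusted p-values, taken over all probe sets, and single genes by exact two-sided permutation tests. The fits were tested on simulated data. The authors used significance analysis of microarrays, which was run as an alternative with 100 permutations, beside the t-test that the methods name, other normalizations, array weights, an adipocyte covariate, naming series and leaving out each array. No batches are given in the sources used here, and the number of arrays limits the precision. Named are the members, the called genes of the pathway lists (at most 4 per list and direction, or the 2 of highest signal where none was called), and the 5 genes most like each member. Some cell marker genes are named as well. The members, the lists and the motifs were chosen with earlier results of these data known. The numbers in the sample titles were used as pairs in 1 alternative only.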

Additional observations from a re-analysis of the deposited data

Results flagged for a closer look

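Within the 2 groups of each of the 5 measured members, 10 groups in all, the highest and the lowest array were set against the rest by Dixon's test, and 3 stood apart. Chance flags about 1 in 20 groups. Thbs1 stood at 11.18 in AngII 8, where the other treated arrays ran from 9.75 to 10.37. Thbs3 stood at 7.91 in AngII 7, below the other treated arrays, which ran from 8.24 to 8.47. Comp stood at 8.61 in vehicle 6, above the other controls, which ran from 7.76 to 8.12. Without AngII 8 the log2 fold change of Thbs1 was 1.64, without vehicle 6 that of Comp was 1.33, and without AngII 7 that of Thbs3 was 0.084, with the call of each as before (adjusted p of 0.00118, 0.00299 and 0.512 from limma).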

How the results depend on the processing

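Thbs1 was called in all 29 alternatives, with log2 fold changes from 1.64 to 1.89 when single arrays were left out and from 1.52 to 2.28 otherwise. Comp ranged from 1.1 to 1.33 without single arrays and lost its call only in series A alone (1.02), where 1 member was called in place of 2. Thbs2 ranged from 0.21 to 0.33 without single arrays and was called only without AngII 6 (0.33, 3 members called). Thbs3 ranged from 0.0013 to 0.084 and changed sign with array weights (-0.0048), in series B alone (-0.025) and without the 3 arrays least like the others (-0.0024). Cd47 ranged from -0.025 to 0.083, its sign turning without AngII 6 (-0.025) or vehicle 1 (-0.0051), and changed sign with array weights (-0.0062), in series A alone (-0.0015) and without those 3 arrays (-0.021). None of these values was called, and the cause was not tested. The correlation of Thbs2 with Comp moved to 0.658 without AngII 5 and AngII 8. Each member has 1 probe set, so another probe set could not be used.

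Calls over all probe sets numbered 805, and ranged from 344 without vehicle 5 to 1198 without AngII 6. They numbered 8 in series A, 373 in series B, 481 with the adipocyte covariate, 531 without the 3 arrays least like the others, 496 after adjustment by the methods' t-test, 1272 with array weights and 274 at Q = 0 by significance analysis of microarrays. Of the 17 called genes of the pathway lists, 8 kept their call whichever array was left out. Arrays with the same title number correlated from -0.456 to 0.416 in their deviations. Arrays with different numbers were not compared, so whether the numbers pair the samples was not tested. With the replicate number as a block, over 7 arrays of each group, Thbs1 changed by 1.64 and Comp by 1.20, both called, with 191 calls in all against 538 for the same arrays without the block.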

Other observations

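Within the 7 vehicle arrays, Thbs3 and Comp varied together, which the AngII arrays did not show. Over 20 relations, the 10 pairs of members in each group, Thbs3 with Comp in vehicle arrays gave r = 0.865 (exact permutation p = 0.000397, adjusted p = 0.00794) and rho = 0.964 (exact permutation p = 0.00278, adjusted p = 0.0556). Vehicle 6 was highest in both genes, at 8.42 and 8.61, while vehicle 3 was lowest in Thbs3, at 8.04, and vehicle 3 and vehicle 5 were lowest in Comp, at 7.76 each. In the 8 AngII arrays the same pair gave r = 0.05 (exact permutation p = 0.899) and rho = 0.0238 (exact permutation p = 0.977). The difference between these correlations was not tested. The only other of the 20 relations to pass was that of Thbs2 with Comp in AngII arrays (adjusted p = 0.0124 for r, exact permutation test, and 0.0724 for rho).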
